A study of Arabidopsis thaliana with 12 samples.

Results

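The pseudo-response regulators, GIGANTEA and the evening complex of the Arabidopsis circadian clock were followed as a group of 9 genes. They were chosen by their gene identifiers for their known place in the clock, with earlier results of these data known. They were the 5 pseudo-response regulator genes TOC1 (AT5G61380), PRR3 (AT5G60100), PRR5 (AT5G24470), PRR7 (AT5G02810) and PRR9 (AT2G46790), the gene GI (AT1G22770), and the evening complex genes ELF3 (AT2G25930), ELF4 (AT2G40080) and LUX (AT3G46640, named PCL1 in the reference). All 9 were among the 27436 genes listed and among the 23330 with enough reads to be tested. The plants were 7-day-old whole seedlings of Arabidopsis thaliana in the Col-0 background, untreated and raised on half-strength MS medium with 1% sucrose. They were WT or carried mutations in genes for nuclear membrane proteins named PNET2, in the combinations pnet2_ac, pnet2_bc (double mutants) and pnet2_abc (triple mutant). Each genotype had 3 strand-specific mRNA libraries. All 3 mutants carry the c mutation, so no comparison of a mutant with WT leaves it out. The nature of the alleles, the number of independent lines, the light regime and the time of day at harvest were not given in the sources used here. A difference in harvest time between genotypes and a difference in clock gene level therefore cannot be told apart in these data. Whether replicates were grown or harvested separately is not labelled, and each p-value therefore reflects only how these libraries vary, which may be technical.

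In the Arabidopsis clock, the MYB-like proteins CCA1 and LHY peak around dawn and repress evening genes, in part through a promoter sequence called the evening element. The pseudo-response regulators follow in a series through the day, PRR9 early, then PRR7 and PRR5, with TOC1 in the evening, and they repress CCA1 and LHY in turn. ELF3, ELF4 and LUX form the evening complex, a repressor that acts at night on PRR9 and on growth genes such as PIF4 and PIF5. A level taken at a single harvest thus reads a cycling quantity at an unknown phase.

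Libraries held 65758625 to 115881203 counts, and a count of 0 would allow up to 3 counts, which is 0.0262 to 0.0436 CPM (counts scaled to a library of 1000000, with the TMM factors of edgeR) and covers counting error only. The members had 6 to 5476 counts in a library. The genome-wide test called 266 genes in pnet2_ac, 150 in pnet2_bc and 15054 in pnet2_abc against WT, where called means a Benjamini-Hochberg adjusted p under 0.05 in edgeR's quasi-likelihood test over all tested genes. WT replicate 1 and pnet2_ac replicate 2 were known from an earlier look at these data to lie farthest from their groups, and calls of the 9 genes that change without both are given with that value. The sources name no gene identifier for PNET2. Of the 3 genes that the reference annotates with the domain DUF2215, taken here as the targeted family, AT3G49840 stood at 8.03 to 10.8 CPM in WT and 2.09 to 2.31 CPM in pnet2_abc, AT5G67610 at 18.9 to 23.6 and 10.7 to 12.01 CPM, and AT1G28760 at 3.65 to 4.48 and 42.4 to 54.1 CPM. In pnet2_ac these genes stood at 6.36 to 7.31, 20.9 to 24.1 and 4.78 to 5.82 CPM, and in pnet2_bc at 5.48 to 8.33, 14.4 to 15.4 and 3.81 to 4.80 CPM. The pnet2_ac libraries lay clear of WT for AT3G49840 (below) and AT1G28760 (above), the pnet2_bc libraries for AT5G67610 (below), and the pnet2_abc libraries for all 3.

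Promoter sequences are shown first, for the members whose window holds the evening element. The 250 bases before each annotated start were taken from the TAIR10.1 reference, and 27443 promoters of the genome were searched on both strands with the same window. The evening element AAAATATCT was found in 2.36% of these promoters and in 3 of the 9 members, TOC1, PRR5 and LUX. TOC1 and PRR5 rose in pnet2_abc and LUX did not pass the test. PRR3, PRR9 and GI were also called higher in pnet2_abc and held no evening element in this window. Each line below shows 30 bases, written 5′ to 3′ on the gene's strand with the element, or its reverse complement AGATATTTT, in capitals. The TOC1 window is chr5:24674802-24674831 (plus strand), the PRR5 window is chr5:8358714-8358743 (minus strand) and the LUX window is chr3:17182979-17183008 (plus strand).
TOC1: aaatatcatgAGATATTTTctccaagatga
PRR5: gattttttctAGATATTTTcttttctccac
LUX: tagaagatctAAAATATCTagctaactcgt
The element lay 151 to 143 bases before the start of TOC1, 187 to 179 bases before that of PRR5 and 53 to 45 bases before that of LUX. TOC1 and PRR5 held it in reverse and LUX in the forward orientation. The PRR5 model in the reference begins at its start codon, so its window may include transcribed bases.

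The related letters AAAAATCT, a CCA1-binding site, occurred in 6.69% of promoters and among the members only in PRR5, 198 to 191 bases before the start. The G-box CACGTG, which light-regulated bZIP and bHLH factors bind, occurred in 6.49% of promoters and in PRR7, PRR9 and LUX, with PRR9 holding 2 copies. The letters GATACG or GATTCG, the core of sites that LUX binds, occurred in 12.1% of promoters, those of PRR9 and ELF3 among them. Matches of different motifs did not overlap in the members' windows. A match of letters is a description of the window, and no binding was measured in these samples.

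In the triple mutant 6 of the 9 members were higher than in WT and none was lower. The background for that count is that 32.5% of the tested genes passed upward and 32% downward in the same comparison. PRR5 rose 12.9-fold, PRR3 3.93-fold, ELF4 2.06-fold, TOC1 1.67-fold, PRR9 1.41-fold and GI 1.35-fold, while PRR7, ELF3 and LUX did not pass the test. Rises of at least 2-fold were called for 3 members against 16% of all tested genes, and 5 members had all 3 pnet2_abc libraries above all WT libraries, against 35.8%. The median log2 fold change of the members was 0.50, against 0.01 over all tested genes, but the median absolute change was 0.50 for the members and 0.74 over all tested genes. The members thus leaned upward, with changes that were mostly of moderate size for this mutant.

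**Figure D1:**
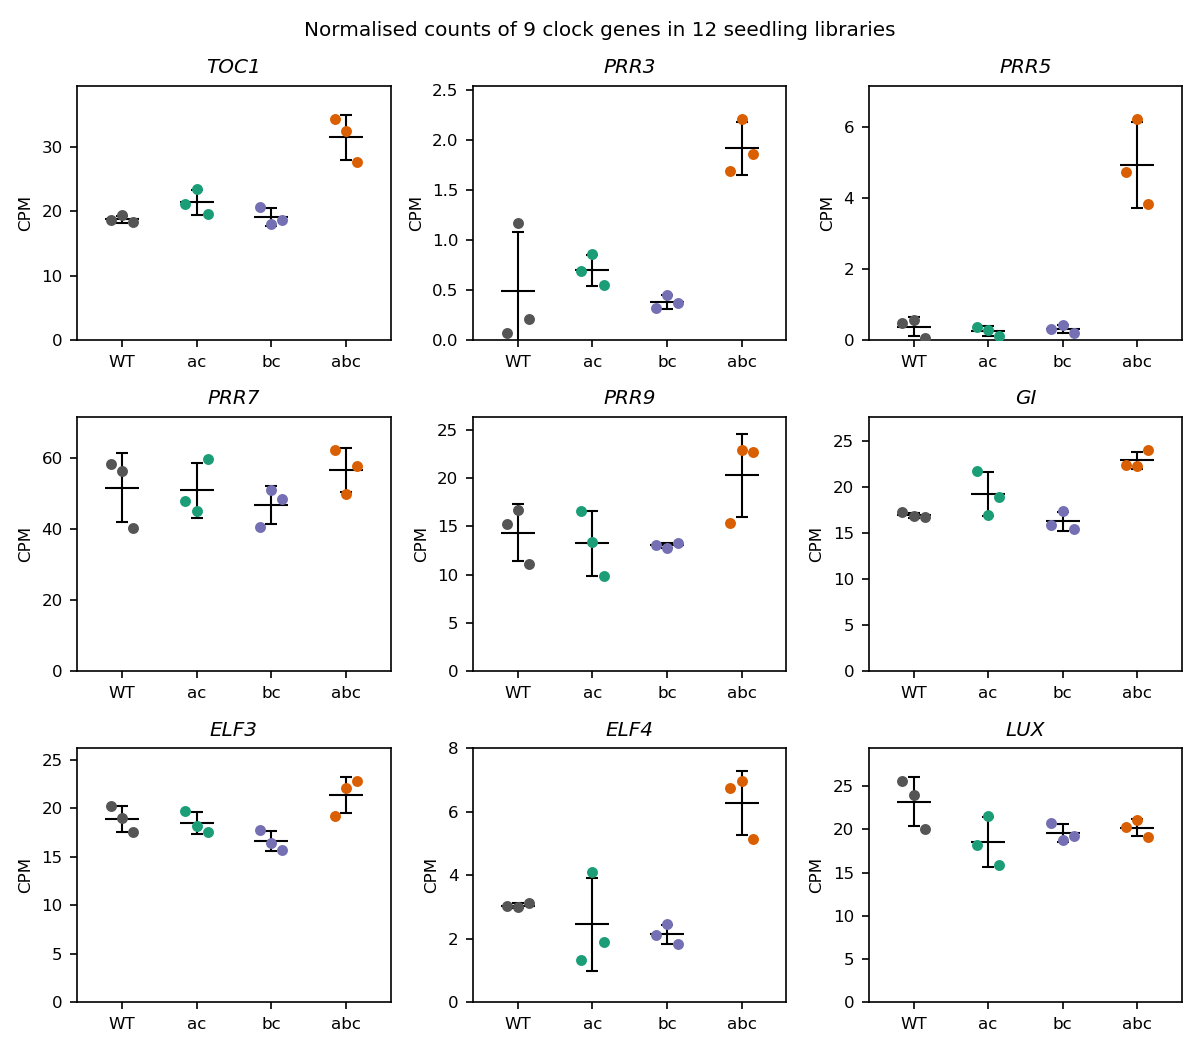
Normalised counts (CPM, linear axes from 0) of the 9 genes in each library, as points, for WT and the mutants pnet2_ac (ac), pnet2_bc (bc) and pnet2_abc (abc); horizontal lines are means and bars are SD over 3 libraries. The pnet2_abc points lie clear of all other points for TOC1, PRR3, PRR5, GI and ELF4, and mix with them for PRR7, PRR9, ELF3 and LUX.

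PRR5, a repressor of CCA1 and LHY that acts in the afternoon and is a target of the ZTL F-box protein, changed most. Its gene lies on chromosome 5 (8356204 to 8358546, minus strand, TAIR10.1) with 6 exons. The WT libraries gave 0.499, 0.566 and 0.0810 CPM, the pnet2_ac libraries 0.385, 0.291 and 0.116 CPM, and the pnet2_bc libraries 0.325, 0.420 and 0.207 CPM. In pnet2_abc the values were 4.74, 6.23 and 3.85 CPM. The lowest triple-mutant library was thus well above the highest of the other 9, and those 9 included WT replicate 3 at only 6 counts. The log2 fold change of pnet2_abc against WT was 3.69 ± 0.61 (SE, adjusted p = 0.000138), and 832 of 23330 genes (3.57%) rose more. Against pnet2_ac it was 4.19 ± 0.63 (adjusted p = 5.85e-05) and against pnet2_bc 3.95 ± 0.62 (8.67e-05). The call against WT held in all 21 alternatives in which PRR5 was tested.

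PRR3, which is known to protect TOC1 protein from ZTL-mediated degradation, had the lowest mean level per transcript length in WT, with libraries that overlapped those of PRR5. Its gene spans bases 24197971 to 24201415 of chromosome 5 on the minus strand. WT gave 0.0788, 1.18 and 0.216 CPM, a spread of 14.9 times between the lowest and highest library. The pnet2_ac values were 0.690, 0.861 and 0.550 CPM and the pnet2_bc values 0.325, 0.459 and 0.372 CPM. The triple mutant gave 1.69, 2.21 and 1.87 CPM, above every other library. Against WT the log2 fold change was 1.97 ± 0.72 (adjusted p = 0.0272). That call was lost without WT replicate 1 (1.47, adjusted p = 0.0535), WT replicate 3 (0.0906), pnet2_abc replicate 2 (0.0635) or pnet2_abc replicate 3 (0.0504). It was also lost in the fit to the 2 genotypes alone (0.0626) and without both WT replicate 1 and pnet2_ac replicate 2 (0.0593). Without WT replicate 2, the highest WT library, the log2 fold change was 3.69 (adjusted p = 0.000132). Against pnet2_bc PRR3 was 4.97-fold higher in pnet2_abc (adjusted p = 0.0132), and against pnet2_ac the 2.74-fold difference did not pass (0.0862). It passed in 6 of 21 alternatives, without WT replicate 1 (0.0293), without WT replicate 2 (0.0112), without both far libraries (0.0413), in the fit to the 2 genotypes alone (0.00515) and in the TPM values at pseudocounts of 1 (0.00269) and 0.1 (0.0280).

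TOC1, the evening pseudo-response regulator that represses CCA1 and LHY, rose by a smaller factor, from WT libraries with little spread. It lies on chromosome 5 (24674963 to 24678550, plus strand). WT libraries gave 18.6, 19.4 and 18.4 CPM, pnet2_ac 21.1, 23.5 and 19.5 CPM, and pnet2_bc 20.7, 18.04 and 18.7 CPM. In pnet2_abc TOC1 stood at 34.3, 32.5 and 27.6 CPM, above all 9 other libraries. The log2 fold change was 0.74 ± 0.10 against WT (adjusted p = 2e-05), 0.56 ± 0.10 against pnet2_ac (0.000262) and 0.72 ± 0.10 against pnet2_bc (2.76e-05). The call against WT held in all 22 alternatives. TOC1 was also the only member whose pnet2_ac libraries all lay above WT, by 0.19 ± 0.10 on the log2 scale, which did not pass the test (adjusted p = 0.422).

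PRR9 and PRR7, the morning members that repress CCA1 and LHY early in the day, moved less. PRR9 (chromosome 2, 19232607 to 19235179, plus strand) stood at 15.3, 16.7 and 11.1 CPM in WT, 16.6, 13.3 and 9.89 CPM in pnet2_ac and 13.1, 12.8 and 13.3 CPM in pnet2_bc. In pnet2_abc it gave 15.3, 22.9 and 22.7 CPM, so replicate 1 sat within the WT range and the other 2 libraries above it. The log2 fold change against WT was 0.50 ± 0.20 (adjusted p = 0.0442), and the call was lost in 10 of 22 alternatives. Without WT replicate 3 it fell to 0.34 (adjusted p = 0.174). The other losses came without WT replicate 1 (0.0641), pnet2_abc replicate 2 (0.141) or pnet2_abc replicate 3 (0.136), without pnet2_ac replicate 2 (0.0546), and without any single pnet2_bc library (0.0540 to 0.0561). The rest were the fit to the 2 genotypes alone (0.0545) and the fit without WT replicate 1 and pnet2_ac replicate 2 (0.0772). PRR9 was 1.53-fold higher in pnet2_abc than in pnet2_ac (adjusted p = 0.0177) and 1.56-fold higher than in pnet2_bc (0.0139). Both of these calls were lost without pnet2_abc replicate 2 (0.0669 and 0.0543) or replicate 3 (0.0644 and 0.0525), and that against pnet2_ac also without pnet2_ac replicate 3 (0.0783) or without both libraries that lay far from their groups (0.0527).

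PRR7 (chromosome 5, 637681 to 642030, minus strand) had the highest level per transcript length (TPM) in every genotype. Its values were 58.2, 56.2 and 40.4 CPM in WT, 47.9, 45.2 and 59.7 CPM in pnet2_ac, 40.7, 50.9 and 48.5 CPM in pnet2_bc and 62.2, 49.9 and 57.8 CPM in pnet2_abc. The groups overlapped throughout. The difference between pnet2_abc and WT was 0.13 ± 0.15 on the log2 scale (adjusted p = 0.449), with the sign turned to -0.02 without WT replicate 3. A p above the threshold does not show that PRR7 was equal in the genotypes: against pnet2_bc the difference was 0.28 ± 0.15 (adjusted p = 0.117).

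GI, a large protein that stabilises ZTL and works with FKF1 in the flowering pathway, rose 1.35-fold. Its gene covers bases 8061751 to 8067790 of chromosome 1 on the plus strand, with 14 exons. WT libraries were tightly grouped at 17.2, 16.8 and 16.7 CPM, and pnet2_bc gave 15.9, 17.4 and 15.4 CPM. The pnet2_ac libraries were at 21.7, 17.0 and 18.9 CPM. All 3 pnet2_abc libraries, at 22.4, 22.3 and 24.0 CPM, lay above these. The log2 fold change was 0.44 ± 0.10 against WT (adjusted p = 0.00139), which held in all 22 alternatives, and 0.49 ± 0.10 against pnet2_bc (0.000541). Against pnet2_ac it was 0.25 ± 0.10 (adjusted p = 0.0350), a call lost without pnet2_ac replicate 2 (0.153) or 3 (0.0897), without pnet2_abc replicate 1 (0.0538) or 3 (0.109), in the fit to the 2 genotypes alone (0.0909) and without both libraries that lay far from their groups (0.163).

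Of the evening complex, the subunit ELF4 rose and its partners did not pass the test. ELF4, a small protein of 111 residues encoded by a single exon (chromosome 2, 16734294 to 16734953, minus strand), binds ELF3 and brings it to the nucleus. WT libraries gave 3.02, 2.99 and 3.13 CPM, and the pnet2_abc libraries 6.75, 6.96 and 5.14 CPM. In pnet2_bc ELF4 stood at 2.11, 2.46 and 1.85 CPM, all below WT. The pnet2_ac libraries disagreed, at 1.35, 4.12 and 1.90 CPM, with replicate 2 above and the others below WT. ELF4 was higher in pnet2_abc than in WT by 1.04 ± 0.33 on the log2 scale (adjusted p = 0.0143), which held in all 21 alternatives in which ELF4 was tested. It was also higher than in pnet2_ac, by 1.36 ± 0.34 (0.00308), and than in pnet2_bc, by 1.55 ± 0.34 (0.00123). Without pnet2_ac replicate 2 the difference from pnet2_ac was 1.96 (adjusted p = 3.11e-05).

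ELF3, the scaffold of the complex (chromosome 2, 11058944 to 11063324, plus strand), gave 20.2, 19.0 and 17.5 CPM in WT and 19.2, 22.1 and 22.8 CPM in pnet2_abc. The pnet2_ac libraries gave 19.7, 18.2 and 17.6 CPM and the pnet2_bc libraries 17.7, 16.4 and 15.7 CPM. WT and pnet2_abc overlapped, and the difference of 0.18 ± 0.09 on the log2 scale did not pass (adjusted p = 0.119). It passed without pnet2_abc replicate 1 (0.25, adjusted p = 0.0451) and under scalings that raise all genes of this mutant, given in the closing section. Against pnet2_bc ELF3 was 1.29-fold higher in pnet2_abc (adjusted p = 0.00443), with no overlap. On the opposite strand ELF3 overlaps ALPHA-VPE over 24 bases, a gene that rose from 2.07 ± 0.11 to 17.99 ± 1.58 CPM, and AT2G08135, which had at most 4 counts in a library.

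LUX, the DNA-binding subunit (chromosome 3, 17183042 to 17186959, plus strand), was the only member with a lower mean in pnet2_abc than in WT on the CPM scale. Its libraries gave 25.5, 24.0 and 20.01 CPM in WT, 18.1, 21.6 and 15.9 CPM in pnet2_ac, 20.7, 18.8 and 19.2 CPM in pnet2_bc and 20.2, 21.1 and 19.2 CPM in pnet2_abc. The means of all 3 mutants lay below WT, and each group overlapped it. The difference of pnet2_abc from WT was -0.20 ± 0.12 (adjusted p = 0.153). It passed without WT replicate 3 (-0.30, adjusted p = 0.0485), and its sign turned in the deposited TPM values (0.02). LUX overlaps AT3G46650 on the opposite strand over 1507 bases, and that gene went from 3.05 ± 0.52 CPM in WT to 0.693 ± 0.240 CPM in pnet2_abc. Whether the counting used strand is not given in the sources used here, so reads of LUX and of AT3G46650 over these bases cannot be told apart.

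**Figure D2:**
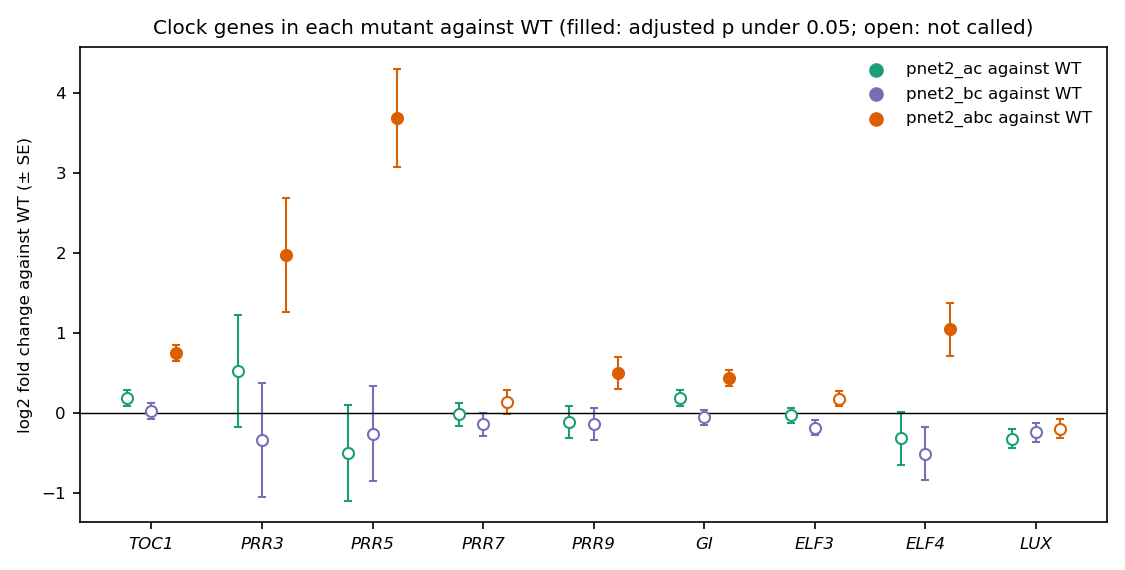
Log2 fold change against WT (points, with SE as bars) of the 9 genes in pnet2_ac, pnet2_bc and pnet2_abc, filled where the adjusted p was under 0.05. All filled points belong to pnet2_abc and lie above 0, from GI at 0.44 to PRR5 at 3.69; the 3 comparisons share the WT libraries.

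In the double mutants no member was called, where 1.14% of tested genes were called in pnet2_ac and 0.643% in pnet2_bc. In pnet2_ac the lowest adjusted p was that of LUX (log2 fold change -0.32 ± 0.12, adjusted p = 0.218), which was also the only member with an unadjusted p under 0.05. TOC1 was the only member whose pnet2_ac and WT libraries did not overlap, against 19.6% of all tested genes. In pnet2_bc LUX again had the lowest adjusted p (-0.24 ± 0.12, 0.487), and no member reached an unadjusted p of 0.05. ELF4 was the only member without overlap there, against 17% of all tested genes. In pnet2_bc 8 of 9 fold changes were below 0, with a median of -0.19 against 0.000 over all tested genes. In pnet2_ac 6 of 9 were below 0, with a median of -0.03 against 0.010. The share of all tested genes below 0 was not computed. The members' median absolute change was reached or exceeded by 40.2% of all tested genes in pnet2_bc and 43.7% in pnet2_ac. DESeq2, which called more genes in both double mutants, also called 0 of the 9 members in either.

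The double mutants did not differ from each other by test in any member, where 0.257% of tested genes were called. GI came closest, 0.24 ± 0.10 lower in pnet2_bc than in pnet2_ac on the log2 scale (adjusted p = 0.369), and it alone had an unadjusted p under 0.05. DESeq2 called 0 of the 9. PRR3 was the only member without overlap, lower in pnet2_bc, where 18.1% of tested genes had none. Set against the triple mutant, 5 members were called higher in pnet2_abc than in pnet2_ac (TOC1, PRR5, PRR9, GI and ELF4), against 30.7% of tested genes, and none lower. Against pnet2_bc 7 were called higher, those 5 with PRR3 and ELF3, against 31.8% of tested genes, and again none lower. These comparisons share the pnet2_abc libraries with each other and with the comparison to WT, so their counts do not add up as separate evidence.

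Levels per transcript length, read from the deposited TPM values (transcripts scaled to a total of 1000000 per library), put the members in order within a genotype. In WT PRR7 led at 23.0 ± 4.84 TPM (SD, n = 3). LUX (10.3 ± 1.51), PRR9 (10.13 ± 2.23), ELF3 (9.91 ± 0.94) and TOC1 (9.63 ± 0.42 TPM) followed, and neighbours among these 4 overlapped. ELF4 at 6.64 ± 0.09 and GI at 5.66 ± 0.23 TPM came next without overlap, and PRR5 at 0.331 ± 0.230 and PRR3 at 0.259 ± 0.318 TPM were last and overlapped. For PRR5 the listed transcript length of 1677 bases equals its coding length, so its TPM values refer to coding sequence alone, unlike those of the other 8.

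In pnet2_abc the order was PRR7 (29.3 ± 3.90 TPM), TOC1 (18.7 ± 2.23), PRR9 (16.5 ± 3.21), ELF4 (15.9 ± 2.51), ELF3 (13.0 ± 0.94), LUX (10.4 ± 0.45), GI (8.87 ± 0.43), PRR5 (4.90 ± 1.11) and PRR3 (1.18 ± 0.13 TPM). From TOC1 to ELF3 each neighbour overlapped the next, and the remaining neighbours were apart. LUX, next after PRR7 by its mean in WT, came after TOC1, PRR9, ELF4 and ELF3. In both double mutants LUX also came after TOC1, PRR9 and ELF3, and there it overlapped the member just above it. The double mutants kept PRR7 at the top (23.5 ± 3.25 TPM in pnet2_ac and 21.4 ± 2.75 in pnet2_bc) and PRR3 and PRR5 at the bottom, at 0.210 to 0.385 TPM.

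The make-up of the pseudo-response regulator transcripts changed accordingly. The summed TPM of the 5 genes was 34.4 to 48.0 in WT, 44.3 to 46.4 in pnet2_ac, 38.9 to 43.5 in pnet2_bc and 69.5 to 72.4 in pnet2_abc, so that the triple mutant stood above all other libraries. PRR5 made up 0.196% to 1.02% of that sum in WT and 5.49% to 8.69% in pnet2_abc. PRR7 made up 50.8% to 55.5% in WT and 36.2% to 45.4% in pnet2_abc, again without overlap. The shares of TOC1 (22.6% ± 3.47 in WT and 26.5% ± 2.68 in pnet2_abc) and PRR9 (23.2% ± 1.26 and 23.5% ± 5.03) overlapped between these genotypes. TPM values are relative to all transcripts of a library, and they raised the median gene of pnet2_abc by 0.17 to 0.22 on the log2 scale against WT.

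**Figure D3:**
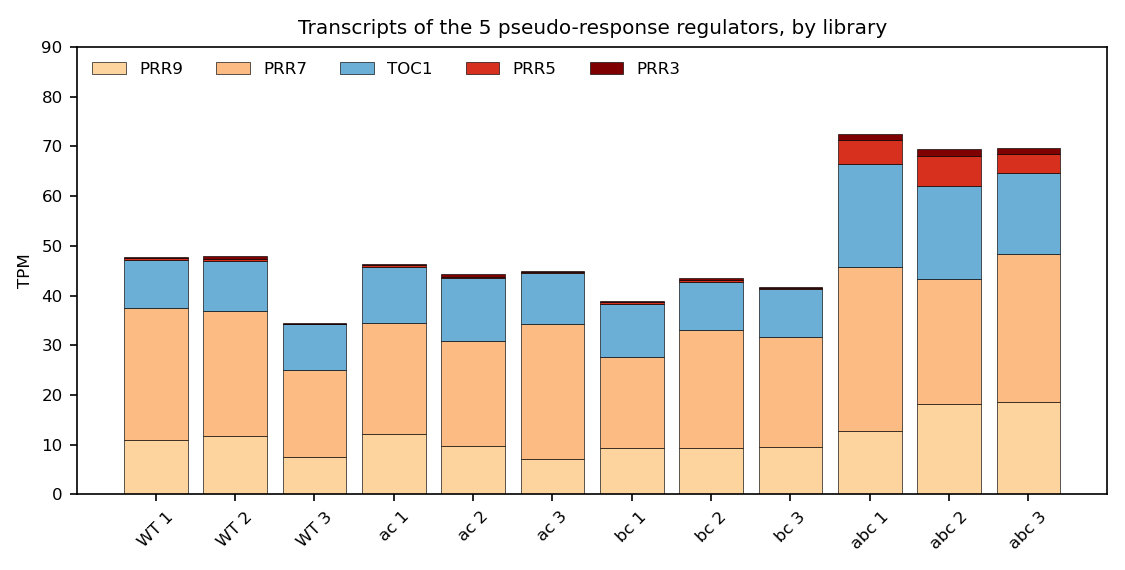
Stacked deposited TPM of the 5 pseudo-response regulator genes in each of the 12 libraries (linear axis from 0). The 3 pnet2_abc bars reach 69.5 to 72.4 TPM, above the other 9, and the PRR5 segment is 3.82 to 6.04 TPM high in pnet2_abc and at most 0.488 TPM in WT.

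Within the evening complex the ratio of ELF4 to ELF3 transcripts on the TPM scale was 0.623 to 0.743 in WT, 0.284 to 0.944 in pnet2_ac, 0.490 to 0.623 in pnet2_bc and 0.938 to 1.46 in pnet2_abc. The triple mutant was thus above WT and pnet2_bc, while the highest pnet2_ac library reached just over its lowest value. The ratio of LUX to ELF3 was 0.967 to 1.07 in WT and 0.713 to 0.892 in pnet2_abc, without overlap. It was 0.766 to 1.01 in pnet2_ac and 0.968 to 1.04 in pnet2_bc. Ratios within a library do not depend on the scaling between libraries.

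The spread between WT replicates differed widely among members. GI (coefficient of variation 1.64%), ELF4 (2.40%) and TOC1 (2.76%) were steadier than most genes within 2-fold of their level, whose median coefficients were 9.46%, 20.3% and 9.11%. PRR7 (18.9%), PRR9 (20.2%) and PRR3 (122%) varied more than the median gene near their level (6.74%, 10.2% and 46.9%), as did LUX (12.3% against 8.46%) and PRR5 (68.8% against 52.3%) by a smaller ratio. WT replicate 3 was the lowest WT library for 7 of the 9 members, all but PRR3 and ELF4, and pnet2_ac replicate 3 was the lowest of its group for 6. The matching shares over all tested genes were not computed, so these counts do not show a trait particular to the members. Whether these libraries differed in harvest time was not tested.

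The other clock genes were read from 8 lists of 54 genes, of which 52 were tested, 8 were called higher and 25 lower in pnet2_abc against WT, where 32.5% and 32% of all tested genes were. CCA1, LHY and the REVEILLE genes, the dawn-phased MYB factors, fell in 8 of 10 cases and rose in none. RVE1, which links the clock to auxin, went from 126 ± 4.35 to 5.44 ± 0.85 CPM, a 23.2-fold fall (adjusted p = 5.04e-11). EPR1, also called RVE7, fell 6.39-fold (adjusted p = 3.4e-06) and ASG4 3.84-fold (1.68e-07). CCA1 and LHY stand outside the naming rule and were added after their values were seen, as the direct targets of the pseudo-response regulators. CCA1 went from 358 ± 14.8 to 118 ± 8.22 CPM (3.05-fold lower, adjusted p = 1.61e-09) and LHY from 468 ± 72.8 to 192 ± 28.5 CPM (2.45-fold lower, 1.17e-06). The list's median log2 fold change was -1.53, against 0.01 over all tested genes.

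All 4 LNK genes, coactivators that the REVEILLE proteins recruit to PRR5 and TOC1, were lower, with LNK2 going from 768 ± 66.7 to 252 ± 25.5 CPM (3.04-fold, adjusted p = 2.87e-09), LNK4 2.69-fold lower (5.23e-09) and LNK1 2.33-fold lower (1.14e-07). The lower calls of the dawn MYB list and of the LNK list numbered 8 and 4 under every alternative run. In the ZTL family of blue-light F-box proteins, ZTL itself was 1.69-fold lower (adjusted p = 5.42e-06). LKP2 was 1.296-fold lower (0.0287), a call lost in 6 of 22 alternatives, among them without WT replicate 1 (0.142), without both far libraries (0.133) and without pnet2_abc replicate 2 (0.121). FKF1 did not pass, at 0.0885 ± 0.0806 CPM in WT and 0.174 ± 0.043 CPM in pnet2_abc.

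Among 6 paralogues of the evening complex subunits, ELF4-L1 rose 2.90-fold (adjusted p = 0.0105), a call lost without pnet2_abc replicate 3 (0.0520), and the other 5 did not pass. ELF4-L1 overlaps AT2G29960 on the opposite strand over 828 bases. Of the pseudo-response regulators outside the clock, APRR8 fell 1.97-fold (adjusted p = 3.8e-06) and APRR2 did not pass. APRR4 and APRR6 were not among the genes listed in the counts and so could not be tested. APRR8 overlaps AT4G00770 on the opposite strand over 2321 bases.

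The 10 clock output genes, which lie directly or indirectly downstream of the evening complex or the pseudo-response regulators, were all called, 7 lower and 3 higher, and over the alternatives 5 to 7 were lower and 2 to 3 higher. PIF4, a bHLH factor that promotes stem growth, went from 74.3 ± 6.58 to 15.6 ± 0.28 CPM (4.78-fold lower, adjusted p = 1.12e-09), and its relative PIF5 fell 3.73-fold (7.66e-10). FT, the mobile flowering signal, was at 0.575 ± 0.189 CPM in WT and 0.0937 ± 0.0812 CPM in pnet2_abc (adjusted p = 0.0215), a call lost without WT replicate 2 (0.0583). CO, the activator of FT, was 2.33-fold lower (adjusted p = 0.0161), a call lost without pnet2_abc replicate 2 (0.0570) or 3 (0.0632), in the fit to the 2 genotypes alone (0.0594) and without both far libraries (0.0524). CO was named after its values were seen, and it overlaps AT5G15843 on the opposite strand over 1967 bases. The 3 that rose were GRP8 (1.505-fold, adjusted p = 2.98e-06), GRP7 (1.38-fold, 0.0149) and the Dof gene AT1G69570 (1.47-fold, 0.00211). The last 2 of these were named after the count was seen. GRP7 lost its call without WT replicate 1 (0.0523), pnet2_abc replicate 1 (0.0544) or pnet2_abc replicate 2 (0.0603), and AT1G69570 overlaps AT1G69572 on the opposite strand over 1241 bases.

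In the list of light receptors with COP1, the cryptochrome gene CRY1 fell 2.31-fold (adjusted p = 3.93e-09), COP1, an E3 ligase subunit, fell 1.43-fold (5.02e-05) and the phytochrome gene PHYA rose 1.29-fold (0.00256), with 3 of 6 not called. Of 11 other clock regulators 3 rose and 1 fell. CHE, a TCP factor that represses CCA1 and is listed as TCP11 in the reference, fell 2.36-fold (adjusted p = 4.23e-08), the casein kinase subunit gene CKB4 rose 1.44-fold (0.0003), and XCT rose 1.38-fold (0.00191). CKB3, another subunit of that kinase, was the remaining call (1.21-fold higher, adjusted p = 0.00685) and was also named after the count was seen.

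**Figure D4:**
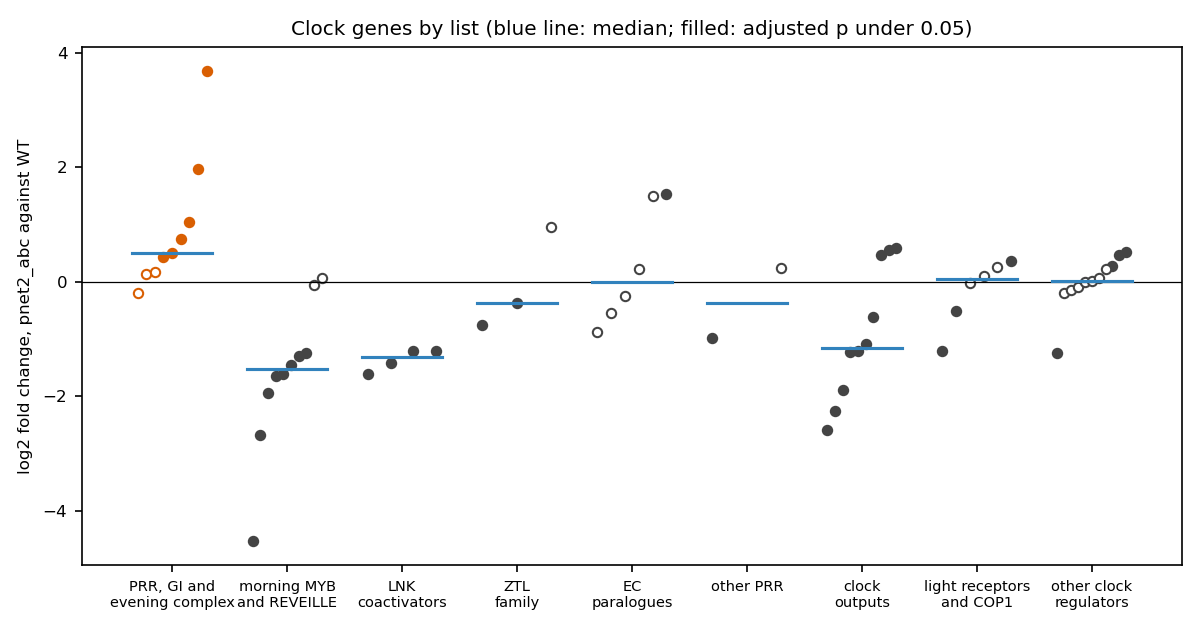
Log2 fold change of pnet2_abc against WT for the 9 genes (orange) and for the genes of 8 lists of other clock genes (grey), with each group's median as a blue line and filled points where the adjusted p was under 0.05. The medians are 0.50 for the 9 genes, -1.53 for the dawn MYB and REVEILLE list and -1.32 for the LNK list.

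In the double mutants 4 of the 52 listed genes were called in pnet2_ac and 1 in pnet2_bc, where 1.14% and 0.643% of all tested genes were called. RVE1 was lower in pnet2_ac (83.4 ± 13.1 CPM against 126 ± 4.35 in WT, adjusted p = 0.0397), and so were LNK3 (94.4 ± 3.82 against 135 ± 13.3 CPM, 0.0140) and PIF5 (170 ± 15.2 against 227 ± 19.99 CPM, 0.0352). GRP8, whose protein regulates its own transcript, was higher (247 ± 21.4 against 187 ± 4.94 CPM, adjusted p = 0.0158). In pnet2_bc LNK3 was lower (101 ± 4.83 CPM, adjusted p = 0.0411). Single libraries ended each of these calls. RVE1 lost its call in pnet2_ac in 10 of 22 alternatives (adjusted p up to 0.256), PIF5 in 13 (up to 0.126), GRP8 in 4 (up to 0.126) and LNK3 in 2 (up to 0.107), and LNK3 lost its call in pnet2_bc in 10 (up to 0.158). Left-out WT libraries were among the losses for every one of them, WT replicate 3 in each case, with adjusted p of 0.102 for RVE1, 0.0947 for PIF5, 0.0644 for GRP8, and 0.0502 and 0.123 for LNK3 in pnet2_ac and pnet2_bc. Between the double mutants 1 of the 52 listed genes was called higher and 1 lower in pnet2_bc, where 0.257% of all tested genes were called. PIF4 was 1.64-fold higher in pnet2_bc than in pnet2_ac (adjusted p = 0.0231) and GRP8 1.298-fold lower (0.0371). PIF4 lost this call in 5 of 22 alternatives (adjusted p up to 0.118) and GRP8 in 11 (up to 0.176).

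Levels that ran parallel to a member over the 12 libraries were looked for among up to 15700 genes averaging 5 CPM or more over the libraries, by the root mean square difference of log2 level relative to the WT mean. For PRR5 the closest were AT3G14360 (0.456, against a median of 2.02 over the genes searched) and AGP2 (0.500), which went from 24.3 ± 5.57 to 385 ± 37.5 CPM. For TOC1 they were AT1G71865 (0.0808) and SEC22 (0.0841), for ELF4 MAPKKK14 (0.274) and AT5G28630 (0.290), and for PRR3 EP1 (0.629) and AT1G67520 (0.638). GI had DTX35 (0.0783) and EIF4A-2 (0.0884) closest, PRR9 AT5G65205 (0.171) and BTI2 (0.182), PRR7 SMC5 (0.102) and SMU2 (0.115), ELF3 AT1G27430 (0.0707) and ABCB25 (0.0800), and LUX U1A (0.125) and AT4G28300 (0.126). None of these is another member, but PRR3, PRR5 and ELF4 average below 5 CPM and were not among the genes searched. A small difference says only that the levels moved alike over these libraries.

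Markers of tissues also differed between pnet2_abc and WT, and whole-seedling RNA does not let fewer cells of a type and less RNA per cell be told apart. The summed level of the 3 leaf mesophyll markers RBCS1A, LHCB1.3 and CA1 was 30691 to 34742 CPM in WT and 8254 to 8904 CPM in pnet2_abc, with all 3 lower. The shoot epidermis markers ATML1 and PDF1 summed to 347 to 399 CPM in WT and 49.8 to 78.6 CPM in pnet2_abc, with both lower. The root cortex and endodermis markers CASP1 and SCR summed to 60.7 to 73.9 and 35.8 to 40.2 CPM, both lower, and the phloem markers SUC2 and APL to 103 to 127 and 70.3 to 89.5 CPM, with SUC2 lower and APL not called. The root epidermis markers EXPA7, COBL9 and RHD6 summed to 5.86 to 10.4 CPM in WT and 4.53 to 11.0 CPM in pnet2_abc. RHD6 was called higher just under the threshold (adjusted p = 0.0499), at 1.05 to 1.48 CPM in WT and 1.99 to 2.17 CPM in pnet2_abc. The other 2 were not called. No marker was at 0 in any library. In pnet2_ac the shoot epidermis markers summed to 302 to 327 CPM, below every WT library, and in pnet2_bc the phloem markers summed to 127 to 137 CPM, at the top of the WT range and above. The other sums of the double mutants overlapped WT, with 28538 to 32506 CPM for the mesophyll markers. The part of these tissue differences in the levels of the 9 clock genes was not tested.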

How the data were processed

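Gene counts and TPM values were used as the authors deposited them. Per the submitters' processing notes, HISAT2 2.0.4 and HTSeq 0.6.1p1 were used with the build TAIR10; the role of each tool and the strand setting were not given in the sources used here. The deposited TPM table carries kallisto in its name. Deposited counts were whole numbers per gene, and the authors' TPM values sum to 1000000 over a library and depend on each listed transcript length. From the counts, edgeR 4.0.16 (R 4.3.3) computed TMM factors, CPM and quasi-likelihood tests over 12 libraries, after its default filter on low counts left 23330 of 27436 genes. All 6 pairs of 4 genotypes were compared, with Benjamini-Hochberg adjustment over all tested genes. The fit was checked on simulated counts. Alternatives used DESeq2 1.42.0, limma 3.58.1 on log2(TPM + pseudocount), other scalings, other filters and left-out libraries. Identifiers were joined to TAIR10.1 (27173 of 27436 matched), from which RefSeq sequences and coordinates were read; the promoter of ELF4 is not reported here. The members, the clock lists and the markers were chosen with earlier results of these data known. Genes of the lists were named if called in a double mutant, or if among the 3 largest called changes of a list in pnet2_abc; for each member the 2 genes most like it were named. Replicate numbers did not pair the libraries: deviations of same-numbered libraries correlated at -0.03 to 0.07 in 18 pairs, none over 0.1. Replicates were separate libraries (chi-square per degree of freedom 32.1 to 50.3).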

Additional observations from a re-analysis of the deposited data

How the results depend on the processing

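The calls of PRR5, TOC1, GI and ELF4 in pnet2_abc against WT held under every alternative run in which the gene was tested. Over all 9 members and 6 comparisons, 1090 of 1170 recomputed values kept direction and side of the threshold, 28 lost and 20 gained a call, and 32 changed sign without a call on either side. Library size alone as the scaling moved the median gene of pnet2_abc against WT from 0.01 to 0.21 on the log2 scale (0.12 against pnet2_ac and 0.16 against pnet2_bc), and ELF3 was then called higher than in WT (0.37, adjusted p = 0.00387), as in the TPM values (0.00725 and 0.00719). PRR7 gained a call in pnet2_abc against pnet2_bc with library size alone (0.0257) and with TPM (0.0283 and 0.0293). The share of called genes that were higher in pnet2_abc than in WT was 50.4%, and 62% and 61.6% with TPM at pseudocounts of 1 and 0.1; in pnet2_ac it was 39.5%, and 67.6% with library size alone.

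Requiring a mean of 5 CPM left 3 called members against WT and 4 against pnet2_bc, because PRR3, PRR5 and ELF4 are below that mean and were not tested. Over all genes, DESeq2 called 1087 in pnet2_ac, 671 in pnet2_bc and 501 between them, against 266, 150 and 60. The fit to the 2 genotypes alone called 249 in pnet2_bc, TPM values called 38 and 36 between the double mutants, and leaving out WT replicate 1 and pnet2_ac replicate 2 left 17, 67 and 11; the cause was not tested. Leaving out single libraries gave 59 to 294 genes in pnet2_ac, 29 to 200 in pnet2_bc and 8 to 132 between them, and 3 to 6 called members in pnet2_abc against pnet2_ac, 4 to 7 against WT and 6 to 7 against pnet2_bc.

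With the replicate block, 229 genes were called in pnet2_ac, 166 in pnet2_bc, 14939 in pnet2_abc, 14614 and 14803 in pnet2_abc against the double mutants and 87 between them; the block changed no call of a member. Of 12 libraries, 4 correlated best with their own number in every other genotype.

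Signs also turned where no value was called. In pnet2_ac against WT this held for PRR7 (library size alone 0.033, TPM 0.041 and 0.043, both far libraries left out 0.154, single libraries left out -0.169 to 0.075), ELF3 (0.024, 0.020 and 0.022, 0.029, and -0.085 to 0.016), PRR3 (both left out, -0.159) and PRR9 (single libraries, -0.306 to 0.061). In pnet2_bc it held for PRR3 (TPM 0.140, replicate block 0.064, single libraries -0.847 to 1.380), PRR5 (-0.741 to 0.129) and TOC1 (-0.034 to 0.066). In pnet2_abc it held for LUX (TPM 0.016 and 0.019) and PRR7 (-0.016 to 0.228). Between the double mutants it held for ELF4 (both left out 0.406, single libraries -0.492 to 0.405), PRR9 (-0.20 to 0.168), PRR5 (-0.095 to 0.630), PRR7 (-0.203 to 0.005) and LUX (-0.018 to 0.202). Depth limits PRR3 and PRR5 most, with 6 counts in a WT library.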
